A study of Mus musculus with 15 samples.

Results

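The windows described here gained H3K4Me1, a histone mark of primed and active enhancers, while H3K27Ac, a mark of active enhancers and promoters, stayed low. They were chosen by their own tag counts. The mouse genome (build mm9, chromosomes 1 to 19 and X) was tiled into windows of 3 kb, and the level of a window was its number of distinct tag positions over the mean window of that library. A window was selected on an H3K4Me1 level under 1.5 at 0 h post-induction (hpi), an H3K4Me1 level of 4 or more at 48 hpi and an H3K27Ac level under 1.5 at all 5 times. This held for 981 of the 832530 windows with a tag in any library, and for 9.53% of the 10289 windows with the same gain of H3K4Me1. The H3K4Me1 levels at 0 and 48 hpi and all H3K27Ac levels of these windows are therefore a description and no finding. H3K4Me1 at 3, 12 and 24 hpi and all 5 H3K27Me3 libraries were not used in the choice. Below, without H3K27Ac stands for a level under 1.5 at all 5 times and not for absence of the mark.

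The study mapped 3 marks at 0, 3, 12, 24 and 48 hpi in C10 cells, with 1 chromatin immunoprecipitation library for each mark and time, 15 in all. C10, a derivative of the mouse pre-B line HAFTL, carries C/EBPαER, an estrogen-inducible form of the myeloid factor C/EBPα, together with green fluorescent protein. All times shared RPMI medium without phenol red with charcoal-treated serum. Induction was by 100 nM β-estradiol with 10 nM each of IL-3 and CSF-1, the control agent was 0.1% ethanol, and the 0 h samples stand for the uninduced cells. A single line was used and nothing was replicated, so changes over time have no replicate error to be held against, and no test was run.

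Enhancers are bound by lineage factors, and the enzymes that place H3K4Me1 commonly act there before or together with those that acetylate H3K27. An element with H3K4Me1 and little H3K27Ac is usually called primed, and with H3K27Me3, the mark of Polycomb repression, it is called poised. H3K27Ac and H3K27Me3 sit on the same lysine and cannot both be present on a single histone tail. In the myeloid lineage, C/EBPα and PU.1 open such elements, and AP-1 factors bind many macrophage enhancers.

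The stretches below come from 8 of the windows, read from the mm9 reference, and are shown because letters of AP-1, PU.1 and RUNX motifs were more frequent in these windows than in all windows. Capitals mark each match to TGANTCA (AP-1), TTGCGCAA or ATTGCNNAA (C/EBP), GAGGAAGT (PU.1), TGTGGTT (RUNX) or CCCNNGGGA (EBF) on either strand. A match is a run of letters and not a measured binding site. The stretch of each window was the exon-free one with the most kinds of match, and windows are called by a gene near them. Every stretch read that paired kinds of match is shown, while most with a single kind are left out, so the pairs are not typical.
Jak2 window, chr19:29260192-29260391, plus strand: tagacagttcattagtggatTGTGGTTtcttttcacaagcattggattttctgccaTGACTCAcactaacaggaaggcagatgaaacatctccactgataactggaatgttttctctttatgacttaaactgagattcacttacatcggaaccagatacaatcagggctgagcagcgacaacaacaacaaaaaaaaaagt
Wipf1 window, chr2:73358274-73358473, plus strand: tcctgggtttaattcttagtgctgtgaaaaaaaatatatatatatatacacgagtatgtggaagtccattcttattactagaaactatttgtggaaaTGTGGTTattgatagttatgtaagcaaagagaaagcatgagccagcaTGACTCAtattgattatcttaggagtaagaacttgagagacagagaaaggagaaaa
1700018C11Rik window, chr4:63329425-63329624, plus strand: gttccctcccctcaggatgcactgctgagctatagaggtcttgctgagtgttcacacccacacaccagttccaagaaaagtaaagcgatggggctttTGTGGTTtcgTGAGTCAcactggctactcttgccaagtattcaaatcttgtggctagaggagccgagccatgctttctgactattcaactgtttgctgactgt
A730020M07Rik window, chr3:121297488-121297687, plus strand: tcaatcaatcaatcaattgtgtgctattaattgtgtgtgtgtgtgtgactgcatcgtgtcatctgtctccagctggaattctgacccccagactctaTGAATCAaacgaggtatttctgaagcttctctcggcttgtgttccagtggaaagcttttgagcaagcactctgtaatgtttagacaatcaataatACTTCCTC
Foxb2 window, chr19:16973260-16973459, plus strand: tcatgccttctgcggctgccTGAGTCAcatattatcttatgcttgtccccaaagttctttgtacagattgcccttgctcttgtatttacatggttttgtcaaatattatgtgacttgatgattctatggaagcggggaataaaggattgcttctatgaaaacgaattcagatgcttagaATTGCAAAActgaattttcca
Myh10 window, chr11:68596003-68596202, plus strand: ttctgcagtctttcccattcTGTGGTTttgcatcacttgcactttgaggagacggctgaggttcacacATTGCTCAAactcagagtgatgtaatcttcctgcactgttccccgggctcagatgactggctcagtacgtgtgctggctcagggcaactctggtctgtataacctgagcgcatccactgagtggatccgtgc
Itgam window, chr7:135172586-135172785, plus strand: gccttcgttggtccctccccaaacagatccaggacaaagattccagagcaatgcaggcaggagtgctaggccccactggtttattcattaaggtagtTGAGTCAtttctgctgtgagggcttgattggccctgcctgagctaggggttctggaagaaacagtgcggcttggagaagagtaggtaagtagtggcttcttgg
Siglec1 window, chr2:130900307-130900506, plus strand: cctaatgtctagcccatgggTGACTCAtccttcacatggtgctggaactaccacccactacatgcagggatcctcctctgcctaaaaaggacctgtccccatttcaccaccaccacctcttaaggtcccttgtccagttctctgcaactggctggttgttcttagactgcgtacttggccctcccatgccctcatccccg

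The Jak2 and Wipf1 stretches hold RUNX letters followed by TGACTCA, and the 1700018C11Rik stretch holds RUNX letters followed by TGAGTCA. The Foxb2 stretch pairs TGAGTCA with C/EBP letters, the A730020M07Rik stretch pairs TGAATCA with PU.1 letters on the other strand, and the Myh10 stretch pairs RUNX letters with C/EBP letters. The last pair of stretches lies near Itgam, which encodes the integrin CD11b, and Siglec1, a macrophage sialic acid receptor, and each holds an AP-1 match only.

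The libraries held 11.04 to 31.56 M tags, or 13.1 to 37.9 distinct positions in the mean window. At this depth the lower limit for H3K4Me1 at 48 hpi was 53 tags, a level of 4.04 with an exact Poisson 95% interval of 3.03 to 5.29. Just inside it lay 81 windows with exactly 53 tags, and 70 windows that otherwise passed lay just outside with 52 tags, a level of 3.97. At the other limit, 163 of the chosen windows had a highest H3K27Ac level of 1.4 to under 1.5, and 198 windows with the gain of H3K4Me1 had 1.5 to under 1.6. The limits therefore cut through a continuum, and all intervals here cover counting error only. As a check of the cells, H3K27Ac in the 3 kb around gene starts was set at 0 against 48 hpi, with a call for a 2-fold change and a level difference of at least 0.5. It was lower at 8 of 8 pre-B genes and higher at 10 of 10 macrophage genes, against 9.16% lower and 6.05% higher of 22350 protein-coding genes, and neither at 4 T cell and 3 erythroid genes. H3K27Ac was not lost at the pre-B starts, whose median level went from 69.8 to 26.0, while that of the macrophage starts went from 2.41 to 25.2. In the wider gene lists used below it was higher at 18 of 26 macrophage receptor genes and lower at 0, lower at 25 of 25 B lineage genes, higher at 1 and lower at 1 of 16 T lineage genes, and higher at 1 and lower at 2 of 12 erythroid genes. It was higher at 11 of 20 lysosomal and secreted enzyme genes and 11 of 18 inflammatory cytokine and chemokine genes and lower at 0 of both. Myeloid transcription factor genes were split, with 3 higher and 3 lower of 23. It was higher at 0 and lower at 2 both of 21 non-blood developmental genes and of 18 genes that every cell uses. The H3K27Ac libraries of 0 and 3 hpi held 569 and 463 tags in a segment of 60 kb of chromosome 12 where the other 13 libraries held 8 tags together. The segment held 0 of the chosen windows. The H3K4Me1 and H3K27Me3 libraries of 0 and 3 hpi are among those 13, so the H3K27Ac libraries of these times differ from them there. Why they differ was not tested. Every contrast of H3K27Ac at 0 against 48 hpi in this report rests on such a library. With the H3K27Ac limit applied only at 12, 24 and 48 hpi there were 1015 windows, which held all 981.

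H3K4Me1 rose late at these windows. In the order of the 5 times, the median tag count was 15, 19, 35, 54 and 62. As levels, which correct for the depth of each library, these medians were 0.88, 0.903, 1.78, 3.60 and 4.73. The lowest and highest windows ranged from 0.0951 to 4.28 at 3 hpi, from 0.0507 to 7.46 at 12 hpi and from 0.40 to 12.0 at 24 hpi. The 3 hpi library therefore sat at the 0 hpi level, and the times not used in the choice rose in order. The median was higher at 12 than at 3 hpi and higher at 24 than at 12 hpi on all 20 chromosomes.

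A level of 4 was first reached at 3 hpi by 1 window, at 12 hpi by 64 windows (6.52%, exact binomial 95% interval 5.06 to 8.25%), at 24 hpi by 340 (34.7%, 31.7 to 37.7%) and at 48 hpi by 576 (58.7%, 55.6 to 61.8%). Windows not at 4 earlier fall at 48 hpi by the choice, so the last share follows from the others. Between 3 and 24 hpi, which the rule did not use, 883 of 981 windows (90.0%) rose at least 2-fold with a level difference of at least 0.5, where 4.81% of all windows did. Windows kept for a gain by 48 hpi had much of this rise built into the choice, so the share describes how complete the rise was by 24 hpi.

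The nearest set is 905 windows with the same gain of H3K4Me1 and a highest H3K27Ac level of 1.5 to under 2. Their H3K4Me1 medians over the 5 times were 0.939, 0.903, 1.78, 3.80 and 5.03, so the course was not particular to the chosen windows. A set further off is the 4720 windows with the same gain in which H3K27Ac also went from under 1.5 at 0 hpi to 4 or more at 48 hpi. Their H3K4Me1 started at the same median of 0.88 and went through 1.05, 3.10 and 6.07 to 7.93. As a share of its own rise, the median stood at 23.3% at 12 hpi and 70.7% at 24 hpi in the windows without H3K27Ac, and at 31.4% and 73.6% in the windows that gained both. The 0 and 48 hpi levels behind these shares were set by the choice of the windows. Of the windows that gained both, 3.5%, 37.0%, 33.3% and 26.2% first reached a level of 4 at 3, 12, 24 and 48 hpi. A level of 4 lies close to the 48 hpi median of the chosen windows, 4.73, and far under the 7.93 of the windows that gained both. The chosen windows would thus cross it later even on the same relative course, and no difference in timing is read from these shares.

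H3K27Ac was low by selection but was not flat. Its median tag count was 6, 10, 13, 16 and 21 over the 5 times, with levels of 0.328, 0.475, 0.662, 0.76 and 1.07. The median window of the genome stayed between 0.142 and 0.332. At 48 hpi 945 of the 981 windows (96.3%) had a higher H3K27Ac level than at 0 hpi, and 621 (63.3%) passed the 2-fold call, where 7.44% of all windows did. These libraries set the choice, so nothing is read from that contrast beyond its size. Only 4 windows stayed under 0.5 at all times, and 284 (29.0%) stayed under 1. The plot of levels by time shows the small H3K27Ac rise beside that of the windows that gained both marks, which ended at a median of 7.41.

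**Figure D1:**
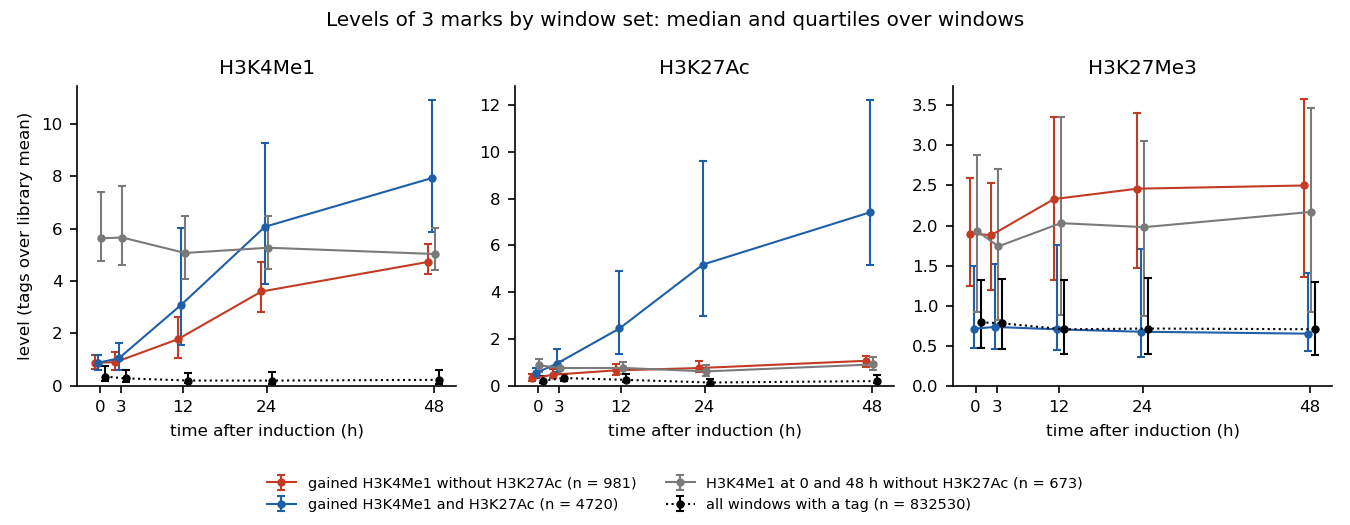
Median level (tags over the library mean, y axis) of H3K4Me1, H3K27Ac and H3K27Me3 against hours after induction (x axis) for the 981 windows that gained H3K4Me1 without H3K27Ac and 3 other sets, with bars from the lower to the upper quartile over windows and 1 library per point. The chosen windows (red) rise in H3K4Me1 from 0.88 to 4.73, and their H3K27Me3 goes from 1.90 to 2.50 while that of the windows that gained both marks stays between 0.651 and 0.735.

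Before induction, H3K27Me3 was higher at these windows than at those that gained both marks or over all windows. At 0 hpi, a library not used in the choice, their median H3K27Me3 level was 1.90 (order-statistic 95% interval 1.85 to 1.98), against 0.713 (0.686 to 0.739) in the windows that gained both marks and 0.792 over all windows. A level of 2 or more at 0 hpi was found in 454 of 981 windows (46.3%, 43.1 to 49.5%), in 721 of 4720 windows that gained both (15.3%, 14.3 to 16.3%) and in 11.0% of all windows. The median was above that of the windows that gained both on all 20 chromosomes. Another set was 673 windows with H3K4Me1 of 4 or more at both 0 and 48 hpi and H3K27Ac under 1.5 throughout. It resembled the chosen windows, with a median of 1.93 (1.74 to 2.06) and 47.7% (43.9 to 51.5%) at 2 or more. High H3K27Me3 was thus shared by H3K4Me1 windows without H3K27Ac, whether H3K4Me1 was gained or present from the start.

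The relation was graded. Among all 10289 windows that gained H3K4Me1, the share with H3K27Me3 of 2 or more at 0 hpi was 56.0% (50.0 to 61.8%) where the highest H3K27Ac level was under 1. It was 42.3% from 1 to 1.5, 32.9% from 1.5 to 2, 20.5% from 2 to 4, 14.0% (12.7 to 15.3%) from 4 to 8 and 17.0% (15.5 to 18.5%) at 8 or more. The share fell up to the bin from 4 to 8 and was not lower at 8 or more. Read the other way, windows without H3K27Ac made up 2.32% (1.75 to 3.02%) of the windows that gained H3K4Me1 from an H3K27Me3 level under 0.5, and 27.4% (23.7 to 31.3%) of those that started at 3 or more. Even there, most windows that gained H3K4Me1 passed an H3K27Ac level of 1.5 at some time.

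**Figure D2:**
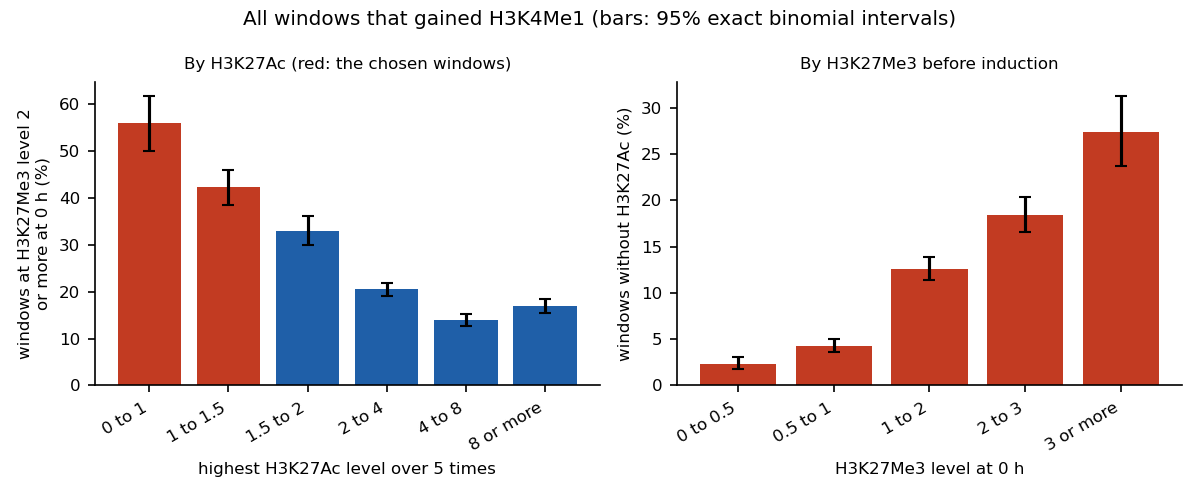
Left, the share (y axis, percent) of windows that gained H3K4Me1 with an H3K27Me3 level of 2 or more at 0 hpi, by their highest H3K27Ac level (x axis); right, the share without H3K27Ac by H3K27Me3 level at 0 hpi, with exact binomial 95% intervals as bars. The left share goes from 56.0% to 17.0% and the right share from 2.32% to 27.4%.

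H3K27Me3 also rose at these windows. Its median tag count was 72 in the library of 0 hpi, the deepest of the 15, and 41, 53, 62 and 46 in those that followed. Scaled to each library's mean window, the median level was 1.90, 1.88, 2.33, 2.46 and 2.50. The step fell between 3 and 12 hpi, when the median H3K4Me1 level also rose, from 0.903 to 1.78. The median log2 change from 0 hpi, with 1 tag added to each count, was -0.01, 0.28, 0.31 and 0.34 (0.31 to 0.37) at the later times in turn, and 764 of 981 windows (77.9%) were higher at 48 hpi. The corresponding change at 48 hpi was -0.01 in the windows that gained both marks, 0.16 (0.11 to 0.20) in the windows with H3K4Me1 at both times and -0.03 over all windows. At 12 hpi it was 0.12 (0.10 to 0.14), 0.14 (0.11 to 0.18) and -0.02 in the same order, after 0.02, -0.07 and 0.04 at 3 hpi. At 24 hpi the change was 0.00 (-0.02 to 0.02), 0.00 (-0.02 to 0.04) and -0.03. Both of these H3K4Me1 sets thus shared part of the step at 12 hpi but not at 24 hpi, where the chosen windows stood at 0.31. Each time is 1 library, so such swings between times have no replicate to be held against. The order of the marks was not tested. The 905 windows with a highest H3K27Ac level of 1.5 to under 2 went from a median H3K27Me3 level of 1.53 at 0 hpi to 1.85 at 48 hpi. Windows that gained both were chosen for high H3K27Ac at 48 hpi, and H3K27Ac and H3K27Me3 sit on the same lysine. Their contrast in H3K27Me3 at that time, here and by starting level below, is therefore not independent of the choice. Scaling to the median window in place of the mean adds 0.17 to every set. In the chosen windows the median change was above 0 on 19 of 20 chromosomes, which share the same libraries. Chromosome X, which held 14 of the windows, was at -0.24.

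By a call of 1.5-fold and a level difference of at least 0.5, H3K27Me3 was higher at 48 than at 0 hpi in 229 of 981 windows (23.3%, 20.7 to 26.1%), where 4.23% of all windows were, and lower in 22 (2.24%), where 4.37% were. A level of 2 or more at 48 hpi was found in 616 windows (62.8%, 59.7 to 65.8%), against 13.3% of all windows, 14.8% of the windows that gained both and 54.2% (50.4 to 58.0%) of those with H3K4Me1 at both times. By the call, H3K27Me3 was higher in 5.68% (5.03 to 6.38%) of the windows that gained both and in 7.88% (5.95 to 10.2%) of those with H3K4Me1 at both times. Since a level must be present to rise by 0.5, windows were also compared at the same starting level. From a 0 hpi level of 1 to 2, the median log2 change was 0.42 (0.34 to 0.47) in 343 of the chosen windows, -0.07 in 194927 windows without either mark (H3K4Me1 under 1.5 at 0 and 48 hpi and H3K27Ac under 1.5 throughout) and -0.03 in 1090 windows that gained both. In 168 windows with H3K4Me1 at both times it was 0.17 (0.09 to 0.27). From 2 to 3 it was 0.38 (0.34 to 0.42) in 305 windows, 0.07 without either mark, -0.05 in the windows that gained both and 0.22 (0.17 to 0.29) in those with H3K4Me1 at both times. From 3 to 4 it was 0.32 (0.25 to 0.40) in 123 windows, 0.08 without either mark, -0.29 (-0.34 to -0.12) in the windows that gained both and 0.18 (0.11 to 0.26) in those with H3K4Me1 at both times, whose interval overlaps that of the chosen windows there. The rise was smallest at the ends of the scale, with 0.14 from a level under 1, where the median levels themselves were 0.607 and 0.597, and 0.11 (-0.05 to 0.36) in the 26 windows from 4. The tags pool many cells, so more H3K27Me3 per cell and more cells with the mark cannot be told apart, and H3K4Me1 and H3K27Me3 in a window need not lie in the same cells.

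**Figure D3:**
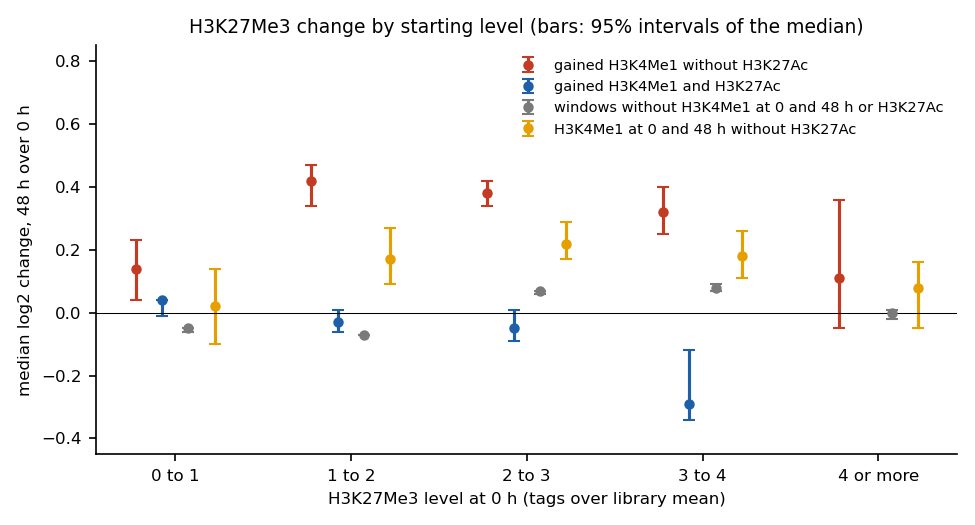
Median log2 change of H3K27Me3 from 0 to 48 hpi (y axis) by the H3K27Me3 level at 0 hpi (x axis) for the windows that gained H3K4Me1 without H3K27Ac (red), the windows that gained both (blue), the windows without either mark (grey) and the windows with H3K4Me1 at both times (orange), with 95% intervals of the median over windows. The red points sit at 0.42, 0.38 and 0.32 for starting levels of 1 to 4, above the other 3 sets, of which the orange points at 0.17, 0.22 and 0.18 are the nearest.

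Split by H3K27Me3 at 0 hpi, 184 of the chosen windows (18.8%) were under 1, 343 (35%) from 1 to 2 and 454 (46.3%) at 2 or more. Their H3K4Me1 medians at 24 hpi were 3.40, 3.67 and 3.73, and at 12 hpi 1.83, 1.67 and 1.78. Since the choice fixed the H3K4Me1 range at 0 and 48 hpi in all 3 groups, no likeness of course is read from these medians. The windows under 1 kept little H3K27Me3, with medians of 0.607 at 0 hpi and 0.597 at 48 hpi, and 51.1% of them lay within 6 kb of an acetylated window, against 36.3% of those at 2 or more. In the last group the H3K27Me3 median went from 2.64 to 3.53.

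The signal around the windows was broad for H3K27Me3 and narrow for H3K4Me1. Mean H3K27Me3 in the window went from 1.95 at 0 hpi to 2.53 at 48 hpi, and at 10 to 16.5 kb from the centre, the outer part of the profile, from 1.57 to 2.01. At that distance it also rose around the windows that gained both, from 1.03 to 1.26, and around those with H3K4Me1 at both times, from 1.59 to 1.73. Mean H3K4Me1 at 0 hpi was lower in the chosen windows (0.893) than in their outer part (1.65), and at 48 hpi it was higher (5.00 against 3.09). H3K27Ac had the opposite shape, with a mean of 1.03 in the window at 48 hpi and 2.70 in the outer part. A dip of H3K27Ac and of 0 hpi H3K4Me1 at the centre, and a peak of 48 hpi H3K4Me1, follow from the choice of the windows, for which no H3K27Me3 library was used.

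**Figure D4:**
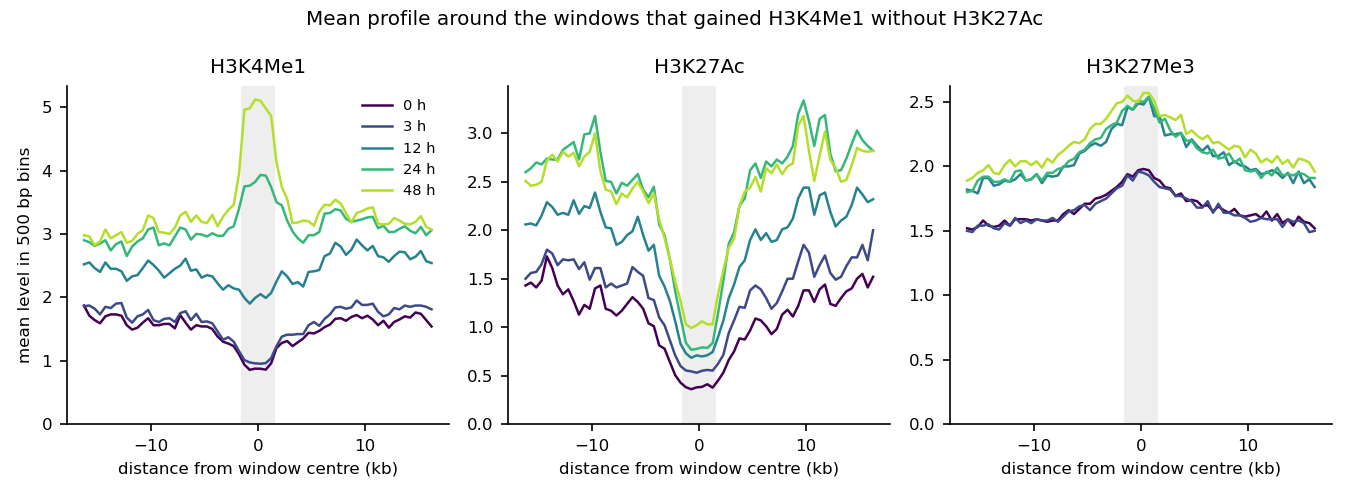
Mean level in 500 bp bins (y axis) against the distance from the window centre in kb (x axis) for the 981 windows, with a line for each time and the 3 kb window shaded. H3K27Me3 is highest in the window at all 5 times and is raised over the whole width from 12 hpi on.

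Many of the windows were neighbours of active ones. An acetylated window was defined by an H3K27Ac level of 4 or more at any time. The centres of 254 windows (25.9%, 23.2 to 28.8%) lay next to an acetylated window and those of 414 (42.2%, 39.1 to 45.4%) within 6 kb. Among all 776728 windows that were not themselves acetylated, as the chosen windows cannot be, 6.08% lay next to an acetylated window and 10.6% within 6 kb. Beyond 50 kb lay 83 (8.46%) of the chosen windows, against 64.8% of the windows not themselves acetylated. The 673 windows with H3K4Me1 at both times had 40.4% (36.7 to 44.2%) within 6 kb, so closeness did not separate the chosen windows from them. The windows over 50 kb away reached a median H3K4Me1 level of 3.80 at 24 hpi, those between 3.67 and those within 6 kb 3.60. The H3K27Me3 medians at 0 hpi were 1.82, 2.06 and 1.77 in the same order, so neither mark followed a steep trend with distance. Of the chosen windows, 70 (7.14%) lay next to another of the set and 172 (17.5%) within 15 kb of another. Of the 831549 other windows, 0.224% lay next to a chosen window and 1.06% within 15 kb of one.

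The centres of the windows lay in an exon of a protein-coding gene in 30 cases (3.06%), in an intron in 378 (38.5%) and between such genes in 573 (58.4%, 55.3 to 61.5%). Of the windows that gained both marks, 37.3% (35.9 to 38.7%) lay between genes, so the windows without H3K27Ac were more often intergenic, close to the 60.9% of all windows. Within 2500 bp of a gene start lay 73 (7.44%, 5.88 to 9.27%), against 10.5% (9.63 to 11.4%) of the windows that gained both, 18% (15.1 to 21.1%) of those with H3K4Me1 at both times and 6.99% of all windows. The median distance to a start was 20300 bp, against 16500 bp in the windows that gained both, 11600 bp in those with H3K4Me1 at both times and 49700 bp over all windows. They were found on all 20 chromosomes, at 0.295 to 0.577 per Mb of the autosomes and 0.0925 on chromosome X.

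Their base composition was close to that of the windows that gained both marks, with a median GC content of 44.2% against 43.9%, and 41.3% over all windows. AP-1 letters were found in 726 windows (74.0%, 71.1 to 76.7%), in 73.3% of the windows that gained both, in 62.1% of those with H3K4Me1 at both times and in 60.0% of all windows. At a GC content of 45 to 50% the AP-1 shares were 72.1% (66.9 to 77.0%), 71.0%, 63.5% (57.3 to 69.3%) and 59.9% in the same order. PU.1 letters were found in 22.2% (19.7 to 25%), in 21.8% of the windows that gained both, in 24.4% of those with H3K4Me1 at both times and in 16.6% of all windows. RUNX letters were found in 55.6%, and in 55.7%, 60.9% and 51.2% of the same sets in that order. C/EBP letters were found in 265 windows (27%, 24.3 to 29.9%), in 29.6% (28.3 to 31.0%) of the windows that gained both and in 27.7% of all windows, so the interval of the windows without H3K27Ac held the share of the genome. EBF letters, those of a B lineage factor, were found in 29.7% (26.8 to 32.6%) and in 26.3% (25.1 to 27.6%) of the windows that gained both. They were found in 47.1% (43.3 to 51.0%) of the windows that had H3K4Me1 at both times and 23.6% of all windows. At a GC content of 45 to 50% the EBF shares were 34.4% (29.2 to 39.8%), 34.2%, 52.7% (46.4 to 58.9%) and 36.6% in the same order, so the excess over all windows was not seen there. Matches of different motifs could share bases, and none was read as a bound site.

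The 10 windows with the highest H3K4Me1 at 48 hpi were taken with at most 1 for each nearest gene. Tags are given as counted, and since the mean window held 17, 21, 19.7, 15 and 13.1 H3K4Me1 tags over the 5 times, an equal tag count stands for a higher level at 48 than at 12 hpi. The highest, chr16:24426001-24429000, lay in an intron of Lpp, which encodes a focal adhesion protein, and held 19, 36, 59, 102 and 161 H3K4Me1 tags over the 5 times (95% interval of the last, 137 to 188). Its H3K27Ac stayed between 8 and 28 tags, and its H3K27Me3 level was low, with 0.554 at 0 hpi and 0.868 at 48 hpi. It therefore belonged to the minority without H3K27Me3.

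The window over an exon of Pfkfb4, a glycolysis regulator, at chr9:108918001-108921000, lay with its centre 75 bp from an annotated start. It held 6, 13, 19, 82 and 155 H3K4Me1 tags and at most 29 H3K27Ac tags. Nearly all of its gain came after 12 hpi. The Ston2 window, at chr12:92973001-92976000 by a gene for an endocytic adaptor, instead held 110 tags at 12 hpi and 180 at 24 hpi, and 149 at 48 hpi. Its H3K27Me3 level was 2.09 at 0 hpi and 2.93 at 48 hpi.

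The window at chr7:149547001-149550000 lay in an intron of 6330512M04Rik and 20071 bp from a start of Ctsd, the lysosomal protease cathepsin D. It held 10, 5, 22, 107 and 140 H3K4Me1 tags and at most 20 H3K27Ac tags, while H3K27Ac at the Ctsd start went from 266 to 937 tags. The window between genes upstream of Jak2, a cytokine receptor kinase, at chr19:29259001-29262000, held 16, 12, 16, 68 and 135 H3K4Me1 tags. Its course was the latest of the 10 together with that of Pfkfb4 and 6330512M04Rik, since all 3 were still at 22 tags or fewer at 12 hpi.

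Of the remaining 5, the windows by Lrfn3, Myh10 and A730020M07Rik were at or above an H3K27Me3 level of 2 at 0 hpi, and those by Wipf1, an actin regulator, and 1700018C11Rik were not. The Lrfn3 window started at 3.43, stood at 5.68 by 12 hpi and ended at 4.13, the highest H3K27Me3 of the 10. The Myh10 window, whose centre lay 434 bp from a start of this nonmuscle myosin gene, held 18, 27, 82, 128 and 115 H3K4Me1 tags. The 5 windows with the highest H3K4Me1 among those with H3K27Me3 of 2 or more at 0 hpi were Ston2, 6330512M04Rik, Lrfn3, Myh10 and A730020M07Rik, all of them among the 10.

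**Figure D5:**
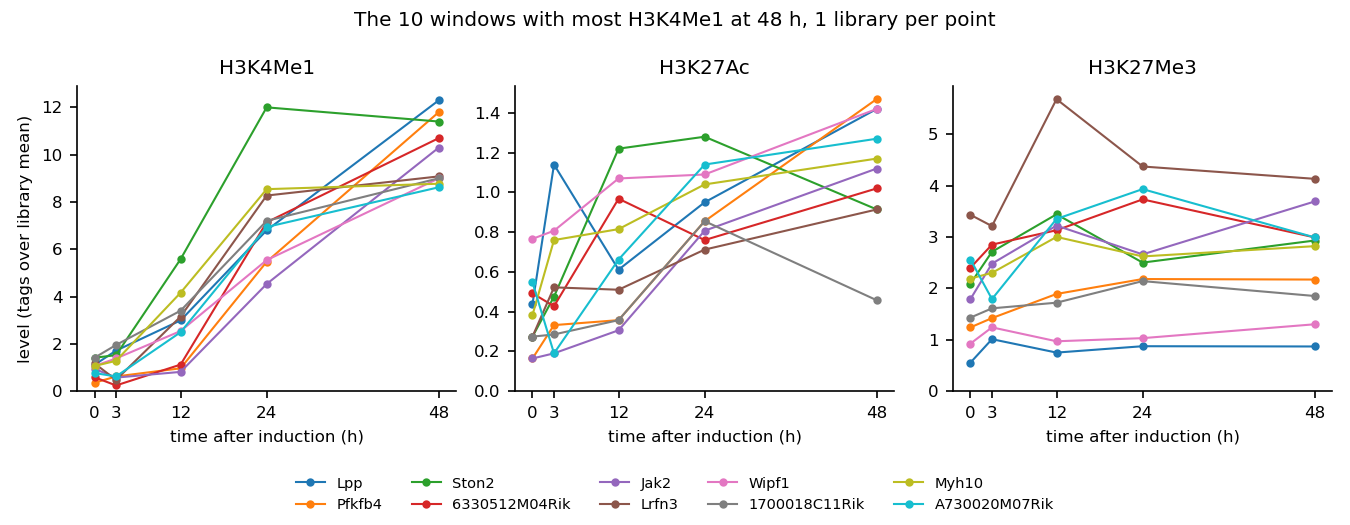
Level (tags over the library mean, y axis) of the 3 marks against hours after induction (x axis) in the 10 windows with the highest H3K4Me1 at 48 hpi, named by their nearest gene, with 1 library per point. H3K4Me1 ends between 8.62 and 12.3 in all 10, and Ston2 peaks at 24 hpi.

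The 4 windows with H3K27Ac under 0.5 at every time lay near Jak2, Ube2l6, Hbegf and Pkp2. The one near Jak2, 6 kb from the window above, held 18, 32, 64, 80 and 85 H3K4Me1 tags against 8, 9, 8, 9 and 6 H3K27Ac tags. H3K27Ac there stayed flat while H3K4Me1 rose. Its H3K27Me3 level was 2.40 at 0 hpi and 3.64 at 48 hpi. The Pkp2 window, in an intron of a desmosome gene 69 kb from an acetylated window, held 20 H3K4Me1 tags at 0 hpi, 56 at 48 hpi and between 5 and 9 H3K27Ac tags. Its H3K27Me3 level was 3.04 at 0 hpi and 4.45 at 48 hpi.

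Of the windows over 50 kb from an acetylated one, those with the highest H3K4Me1 lay near 1700018C11Rik, Lilra6, Foxb2, Cxcr2 and Cdc73. The Lilra6 window, upstream of a leukocyte receptor gene and 117 kb from acetylation, held 11, 20, 86, 127 and 104 H3K4Me1 tags. The window at chr1:74199001-74202000 lay over the start of Cxcr2, the neutrophil chemokine receptor, and held 15, 26, 116, 91 and 85. The Lilra6 window was highest at 24 hpi as a level too, with 8.47 against 7.93 at 48 hpi, whereas the Cxcr2 level went on from 5.89 at 12 hpi to 6.48 at 48 hpi. The Foxb2 window held 15, 14, 24, 74 and 94 tags and rose to the end, and the Cdc73 window lay 816238 bp from the nearest start.

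The 981 windows had 787 nearest genes, of which 654 had 1 window, 92 had 2 and 41 had 3 or more. Adora2b, which encodes an adenosine receptor, had the most, with 7 windows between 62001001 and 62064000 on chromosome 11. Their H3K27Me3 levels at 0 hpi ran from 1.90 to 3.22, and the Adora2b start itself went from an H3K27Me3 level of 2.77 to 5.10 with H3K27Ac at 0.328 and 0.914. A window of the 7 covers this start, so its low H3K27Ac was fixed by the choice. Gm10797 followed with 6 windows, and Ccdc162 and Ston2 with 5 each. Klf4, a Krüppel-like factor of monocytes, had 4 windows with H3K4Me1 levels of 4.65 to 7.63 at 48 hpi, and its start held 0 H3K27Ac tags at 0 hpi and 2 at 48 hpi. Arhgap26, Bre, Ext1, Fbxo38 and Lpcat4 also had 4 each, and their starts were acetylated at 0 hpi with levels of 8.75 to 49.0. Myc, Socs6 and Tet2 had 4 as well and are not described further.

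A window lay within 50 kb of a start of 8 of 26 macrophage surface and phagocytic receptor genes, 2 of 20 lysosomal and secreted enzyme genes, 7 of 18 inflammatory cytokine and chemokine genes and 10 of 23 myeloid transcription factor genes, counting the genes found in the annotation. The same held for 1 of 25 B lineage, 2 of 16 T lineage, 0 of 12 erythroid and 0 of 21 non-blood developmental genes, 1 of 18 genes that every cell uses, and 5.74% of all 22350 protein-coding genes. Windows that gained both marks lay near 15, 15, 14 and 7 genes of the first 4 lists, near 0 B lineage, 6 T lineage, 1 erythroid and 0 non-blood developmental genes, near 4 genes that every cell uses and near 19.4% of all genes. The counts describe these lists and were not tested.

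Among the receptors were Itgam, Itgax, Msr1, Fcer1g, Trem2, Clec7a, Tlr2 and Siglec1. The window of Itgax was also 1 of the 2 of Itgam, so these genes share it. The Msr1 window, 34342 bp from a start of this scavenger receptor gene, held 6, 3, 18, 56 and 59 H3K4Me1 tags and at most 27 of H3K27Ac, while H3K27Ac at the start went from 1 to 471 tags. Its H3K27Me3 level went from 1.27 to 3.58. The low H3K27Ac of the window was fixed by the choice. The Clec7a window, by the gene for the receptor Dectin-1, was early, with 6, 14, 78, 70 and 56 H3K4Me1 tags, and so was that of Tlr2, with 24, 26, 67, 75 and 66. The Siglec1 window was late, with 23, 26, 22, 50 and 91 tags, and its H3K27Me3 level went from 2.48 to 5.21. The higher of 2 windows near Itgam held 15, 8, 19, 53 and 77 H3K4Me1 tags, with H3K27Me3 at 3.22 and 4.78. H3K27Me3 went from 2.35 to 3.75 at the Clec7a window and from 3.88 to 5.10 at that of Tlr2. It was 2.27 and 2.55 at the Itgax window, 2.67 and 2.77 at the higher of 2 Fcer1g windows in H3K4Me1, and 1.74 and 1.57 at the Trem2 window.

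Among the cytokine genes were Il1rn, Il6, Ccl2, Ptgs2, and Ccl5, Ccl6 and Ccl9, which shared 1 window. The Il6 window held 23, 33, 89, 81 and 81 H3K4Me1 tags, with H3K27Ac between 9 and 23, while H3K27Ac at the start of this inflammatory cytokine gene went from 15 to 803 tags. The Ccl2 window, by a monocyte chemokine gene, held 13, 10, 21, 28 and 60 H3K4Me1 tags, and its H3K27Me3 level went from 1.85 to 5.54. That of the other cytokine gene windows went from 1.24 to 3.96 at Ptgs2, from 2.53 to 3.42 at Il6, from 1.79 to 2.99 at the window of Ccl5, Ccl6 and Ccl9, and from 1.45 to 1.85 at the higher of 2 near Il1rn. Of the enzyme genes, Mmp9 and Ctsd had a window, with H3K27Me3 at 3.01 and 3.91 and at 2.40 and 2.99.

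Among the transcription factor genes with a window were Cebpa, Klf4, Fos, Fosl2, Jun, Batf, Batf3, Nfil3 and Atf3, of which Batf3 and Atf3 shared 1. Cebpa, Klf4, Fos, Batf3 and Atf3 had no window that gained both marks within 50 kb. At Nfil3 H3K27Ac at the start went from 62 to 566 tags, and the H3K27Me3 level of its window from 2.19 to 5.16. H3K27Me3 was lower at the end at the Fos window, with 3.80 and 3.15. It ended higher by less at the windows of Cebpa (1.32 and 1.68), Jun (2.64 and 3.37), Batf (3.88 and 4.18) and Batf3 and Atf3 (3.99 and 5.16), and went from 1.64 to 3.26 near Klf4 and from 1.53 to 2.99 at the highest in H3K4Me1 of 4 near Fosl2. The window near Cebpa held 22, 30, 50, 74 and 59 H3K4Me1 tags, and H3K27Ac at the start went from 98 to 42. In the other lists, windows lay near Vpreb2, a surrogate light chain gene whose start went from 1134 to 62 H3K27Ac tags, near Cd4 and Gata3 of the T lineage, and near Eef1a1. The Vpreb2 window held 23, 67, 96, 84 and 77 H3K4Me1 tags, with H3K27Me3 at 4.94 and 4.51.

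H3K27Ac at the starts of the nearest genes was taken where the 3 kb around the start did not touch a chosen window, which left 745 genes. It was at least 2-fold higher at 48 than at 0 hpi in 147 (19.7%, 16.9 to 22.8%), against 6.05% of all genes, and 2-fold lower in 53 (7.11%, 5.37 to 9.20%), against 9.16%. The 745 starts had a median H3K27Ac level of 5.91 at 0 hpi, against 1.31 for all genes. All genes are therefore not a matched baseline for these shares. Of these genes, 424 had no window that gained both marks within 50 kb, and among them the share was 10.8% (8.05 to 14.2%) higher and 8.96% (6.42 to 12.1%) lower. Nearest genes of the windows that gained both were higher in 20.6% (19 to 22.3%). Windows that gained both were themselves chosen by a rise of H3K27Ac, and may cover a start, so leaving out genes near them removes rising starts by construction and nothing is read from the lower share. At 0 hpi an H3K27Me3 level of 2 or more was found at 21.9% of the 745 starts, 11.3% of the nearest genes of windows that gained both and 13.0% of all genes.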

How the data were processed

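The authors aligned the reads to mm9 with Eland or Bowtie without mismatches and removed non-unique and identical tags. The deposited files hold 1 tag of 36 bp per line, as chromosome, start and end without strand, and no count, score or other value per feature. Counts were made here: 1 tag per position was kept, a tag was placed 18 bp from its start, and tags were counted in 3000 bp windows and divided by the mean of windows with a tag in any library. The members and lists were chosen with earlier results of these data known, and the fold limits for H3K27Me3 and the sequence stretches after values were seen. NCBIM37, which is mm9, and GENCODE vM1 gave sequence, exons and the starts of 22350 protein-coding genes. Distances run from window centres, and a gene with several starts is read at the most acetylated. Shares have exact binomial, tags exact Poisson and medians order-statistic 95% intervals over windows, which are not replicates. Named windows were the 10 highest in H3K4Me1 at 48 h, the 5 highest with H3K27Me3 of 2 or more at 0 h, with H3K27Ac under 0.5 (4 found) and over 50 kb from acetylation, at most 1 a gene. Genes named were the 10 with most windows (9 genes tied at 4, taken in alphabetical order), and list genes with a window within 50 kb, of which 1 is not reported here. Scripts in Python 3.11.15 with numpy 2.4.6 and scipy 1.17.1 were tested on simulated data. Identical tags, depth, window grid and size, limits and scaling were varied.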

Additional observations from a re-analysis of the deposited data

How the results depend on the processing

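No paired analysis was possible because a group held 1 library only. The H3K27Me3 log2 change stayed above 0 in all 11 alternatives (0.29 to 0.51). The number of windows depended on the limits. With an H3K4Me1 limit of 3 it was 2691, with medians of 1.42 at 12 h and 2.80 at 24 h and 40.1% at H3K27Me3 of 2 or more. With a limit of 5 it was 368, with 1.98, 4.53 and 56.5%. With H3K27Ac under 1 it was 284, with a 24 h median of 3.47, an H3K27Me3 change of 0.39, 56.0% at H3K27Me3 of 2 or more, 31.3% within 6 kb of acetylation and 4.93% within 2500 bp of a start. With H3K27Ac under 2 it was 1886, with 0.29, 39.9% and 47.3% for the change, the H3K27Me3 share and the share within 6 kb. Windows of 2000 bp gave 1698, a 12 h median of 1.59, a change of 0.29 and 20.2% with C/EBP letters in the shorter window. Shifting the grid by 1500 bp gave 50.9% at H3K27Me3 of 2 or more. Levels over the median window chose 257 windows, of which 0 were among the 981. The median window holds fewer tags than the mean window in every library, so all limits fell at once. The H3K27Ac limit alone left out all 981. It fell under a level of 0.5 on the main scale at every time, since the median window stood at 0.332 at most. Only 4 of the 981 stayed under 0.5 throughout. At 24 h these stood at 0.427, 0.427, 0.237 and 0.237, each over 1.5 times the 0.142 of the median window. The 257 windows had a 24 h median of 3.33, a change of 0.48, 32.7% at H3K27Me3 of 2 or more, 5.06% near a start and 32.3% with C/EBP letters. Their levels and change are in units of the median window and are not on the scale of the main values. With the 981 kept and H3K27Me3 scaled to the median window, the change was 0.51. Thinned libraries chose 967 windows, 881 of them shared, and tags as deposited 1024, 920 shared. That scaling and the H3K27Ac limit at 12, 24 and 48 h only were added after seeing the data.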
